A study of Mus musculus with 6 samples.

Results

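Amino acid transporter genes were examined in mouse fetal liver cells sorted and labelled as early erythroid progenitors (red cell precursors), from embryos that lack or carry the transcription factor Eklf. The genes were those of the solute carrier families Slc1a, Slc3a, Slc7a, Slc36a, Slc38a and Slc43a. They were chosen by symbol, with earlier results of these data known. Each of their probe sets that was annotated to 1 gene alone was taken. These were 40 genes, of 18194 with a probe set of their own. They had 86 probe sets, of 34958 annotated to 1 gene and 45101 on the array. Slc7 gave 15 genes, Slc38 9, Slc1 7, Slc36 4, Slc43 3 and Slc3 2, and 2 further genes of these families, Slc38a8 and Slc38a11, had no probe set of their own. The samples were 3 arrays labelled homozygous for the Eklf (Klf1) knockout, a line the labels trace to targeting with 129 strain genomic DNA and injection of C57BL/6 blastocysts, and 3 arrays labelled wild type. Both groups are given as C57BL/6 fetuses at day 13.5, 1 liver per array, sorted by flow cytometry with CD71 and Ter119 antibodies and the dead-cell dye 7AAD. A knockout of this kind is carried by every cell of the embryo, not by the precursors alone. The labels call the RNA samples independent.

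Cells take up amino acids through carriers that differ in substrate, in the ion that drives them and in the membrane they sit in. Slc7 carriers of the LAT type work only when bound to a glycoprotein heavy chain of the Slc3 family, which brings them to the cell surface, while the cationic amino acid transporters of the same family work alone. Slc38 and Slc1 carriers use the sodium gradient, several Slc36 carriers use protons, and Slc43 carriers let amino acids pass down their gradient. Red cell precursors need glycine for haem, and large amounts of all amino acids for globin.

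The array gives each probe set a signal on a linear scale, scaled by the authors so that all arrays have the same trimmed mean (500). The median signal was 204, 218 and 214 on the knockout-labelled arrays, against 128, 140 and 97.7 on the wild-type-labelled arrays, so dim genes tended to be higher in the knockout-labelled group. The targeted gene did not separate the groups: Klf1 read 3505, 1391 and 2545 on the knockout-labelled arrays, against 2508, 2706 and 4030 on the wild-type-labelled arrays (-0.38 ± 0.32, SE, limma adjusted p = 0.347). It passed as lower only after the array medians were equalized (-1.20, adjusted p = 0.0128). Whether its probe set reads the part of the gene that was removed is not given in the sources used here, so the groups are named by their labels. The sorted cells carried erythroid transcripts in both groups, with Gata1 at 5243 to 5452 (knockout-labelled) and 1265 to 1830 (wild-type-labelled). Of 15 erythroid markers 12 were higher and 1 lower, with a summed signal of 129300 to 184700 in the knockout-labelled group, against 32350 to 35610 in the wild-type-labelled group. Markers of other cells were present and differed as well, which goes against a pure population. Of 15 megakaryocyte markers 13 were higher and 0 lower, with a sum of 41880 to 55360 against 11570 to 11750. Of 21 tested hepatocyte markers 20 were higher in the knockout-labelled group, where their summed signal was 143300 to 220600 over 22 genes, against 9837 to 10690 in the wild-type-labelled group. The lymphoid sum, over 16 genes, was 1862 to 2718 against 28050 to 41990, and the endothelial and stromal sum, over 15 genes, was 41340 to 56440 against 4054 to 4658. The granulocyte sum, over 13 genes, was 103600 to 211600 against 211100 to 251700. In such bulk RNA, fewer cells of a type and less RNA per cell cannot be told apart. The part of these cells in the results below was not tested.

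Of the 40 transporter genes, 30 had a mean signal above the filter (98.6) and were tested. Of these, 13 were higher in the knockout-labelled group, 7 were lower and 10 did not pass limma at an adjusted p of 0.05, each gene read at its brightest probe set. The 7 include Slc7a1, Slc38a2 and Slc38a10, whose probe sets were called in both directions, and with the mean of probe sets 4 members were lower. Over all 12799 genes tested, 27.9% were called higher and 20.8% lower, against 43.3% and 23.3% of the tested transporters. The median difference of the tested transporters was 0.56 on the log2 scale, against 0.14 for all genes. Both medians varied with brightness. In 4 bins from dim to bright, the median of all genes was 0.94, 0.34, -0.13 and -0.25. That of the transporters was 0.90 (7 genes), 0.48 (12), 0.28 (4) and -0.61 (7). The transporters were spread unevenly over these bins, so 0.56 against 0.14 is not evidence of a transporter excess. On 5 of the 30, Slc1a7, Slc7a10, Slc7a11, Slc36a2 and Slc38a4, the wild-type-labelled mean itself lay under the filter. A gene that enters through 1 group alone is favoured to read higher in that group. Of 1303 such genes on the array 942 were called higher, and of the 5 members 2 were, Slc36a2 and Slc38a4. The counts of called members therefore describe the tested genes and are not evidence about the families. Groups did not overlap for 14 members higher and 7 lower, where all genes gave 34.1% and 25.2%.

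**Figure D1:**
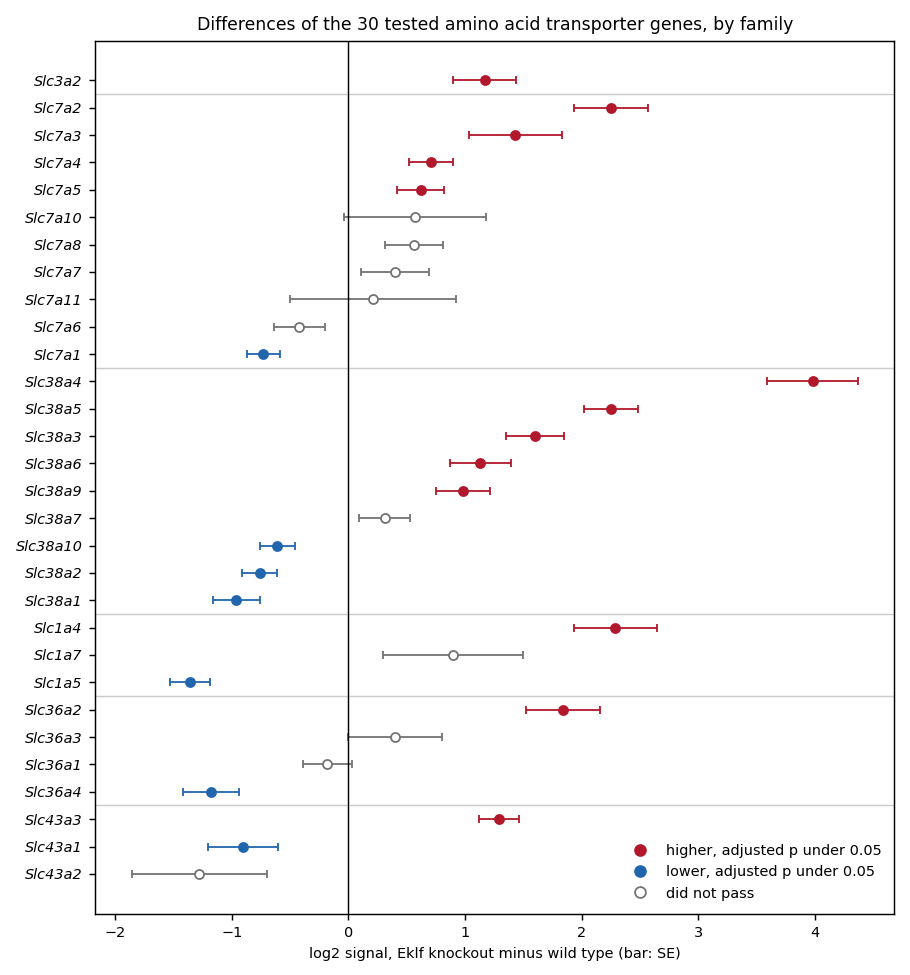
Log2 difference in signal, knockout-labelled minus wild-type-labelled, for the 30 tested transporter genes, grouped by family, with the standard error as a bar. Filled points passed limma's adjusted p of 0.05. Slc38a4 lies farthest to the right at 3.98 and Slc1a5 farthest to the left at -1.36, and every family with several tested genes holds points on both sides of 0.

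Stretches of the promoters of 4 members are shown because their genes are followed through the results: Slc1a4, Slc38a5 and Slc3a2 were higher in the knockout-labelled group, and Slc7a11 is the cystine carrier that did not pass. Each runs from 100 bases before to 20 after a RefSeq start on build GRCm38.p6, 5′ to 3′ on the gene's strand. Capitals mark 3 motifs, searched on both strands: the CACCC-type box bound by Eklf and its relatives (CCNCNCCC, which also takes in the GC boxes of Sp factors), the GATA motif (AGATAA) and the core of the element through which Atf4 answers amino acid shortage (TGATGNAA). Overlapping matches were each counted. The positions are chr11:20332694-20332813 (minus strand) for Slc1a4, chrX:8271281-8271400 (plus) for Slc38a5, chr19:8713878-8713997 (minus) for Slc3a2 and chr3:50443594-50443713 (minus) for Slc7a11.
Slc1a4: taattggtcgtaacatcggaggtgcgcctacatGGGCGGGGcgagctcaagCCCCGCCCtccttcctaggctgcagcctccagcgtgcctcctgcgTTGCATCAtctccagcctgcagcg
Slc38a5: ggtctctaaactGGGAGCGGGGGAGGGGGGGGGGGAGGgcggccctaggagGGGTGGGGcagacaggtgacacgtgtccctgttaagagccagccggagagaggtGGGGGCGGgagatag
Slc3a2: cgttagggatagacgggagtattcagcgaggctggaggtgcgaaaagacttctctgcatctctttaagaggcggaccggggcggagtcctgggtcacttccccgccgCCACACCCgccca
Slc7a11: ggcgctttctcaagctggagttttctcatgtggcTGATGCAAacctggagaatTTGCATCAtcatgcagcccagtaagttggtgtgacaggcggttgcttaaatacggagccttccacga

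Slc7a11 holds 2 copies of the Atf4-type core in this stretch and Slc1a4 holds 1, with its first base 4 bases before the start. The Slc38a5 stretch holds 10 matches to the CACCC-type box, 8 of them overlapping in 1 G-rich run, and the Slc3a2 stretch holds 1, CCACACCC, just after the start. RefSeq windows of 300 bases (250 before to 50 after a start) were at hand for 29 of the 40 members, with 40 windows. The CACCC-type box was found in 75% of the members' windows and in 49.5% of all 32851 windows. The GATA motif was found in 12.5% against 11.2%, and the Atf4-type core in 10% against 3.97%. Windows of 1 gene can overlap, so 1 site can count more than once, as an Atf4-type core of Slc7a7 did. By gene, the CACCC-type box was found for 21 of 29 members and 14019 of 27025 genes. The Atf4-type core was found for 3 of the 29 and 1219 of the 27025. Among called members, 6 of 8 windows of genes higher in the knockout-labelled group held a CACCC-type box, as did 6 of 6 windows of genes that were lower. By gene these were 5 of 6 and 5 of 5. A match in these letters is no evidence of binding.

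The heavy chain Slc3a2 (CD98hc, 4F2hc) read 4496, 10340 and 8699 on the knockout-labelled arrays, against 3148, 3275 and 3430 on the wild-type-labelled arrays. Every knockout-labelled array lay above every wild-type-labelled array, and knockout-labelled array 1 was lowest of its group. Its mean was 7844 ± 3013 against 3284 ± 141.5 (SD, n = 3 each), 2.25-fold higher (log2 difference 1.17 ± 0.27, SE, limma adjusted p = 0.00723). After median centring of the arrays the difference was 0.36 and did not pass (0.345). The other heavy chain, Slc3a1 (rBAT, of kidney and gut), was dim: 34.3, 41.3 and 56.5 on the knockout-labelled arrays, against 50.6, 75.1 and 75 on the wild-type-labelled arrays. It was under the filter and not tested.

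Among the light chains that pair with Slc3a2, Slc7a5 (LAT1, the main surface carrier of leucine and other large neutral amino acids in dividing cells) read 2503, 4134 and 3025 on the knockout-labelled arrays, against 1888, 2010 and 2270 on the wild-type-labelled arrays. The groups did not overlap, and again array 1 was lowest of the knockout-labelled arrays. The difference was 0.62 ± 0.20 (SE, 1.54-fold, limma adjusted p = 0.0286). It was the least stable call: it was lost in 4 of the 6 fits without 1 array (adjusted p 0.0664 to 0.102), namely those without wild-type-labelled array 1 or 2 or knockout-labelled array 2 or 3, without a variance trend (0.058), and after median centring, where the difference was -0.19. The other partners did not pass. Slc7a8 (LAT2) read 0.56 ± 0.25, with every knockout-labelled array (268 to 332) above every wild-type-labelled array (177 to 242, adjusted p = 0.0945). Slc7a7 (y+LAT1), an exchanger of cationic for neutral amino acids, gave 0.40 ± 0.29, and its relative Slc7a6 (y+LAT2) gave -0.42 ± 0.22.

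Slc7a11 (xCT), which imports cystine in exchange for glutamate, read 33.2, 242 and 182 on the knockout-labelled arrays, against 122, 113 and 69 on the wild-type-labelled arrays. The knockout-labelled arrays lay on both sides of the wild-type-labelled ones, and the difference was 0.21 ± 0.71 (SE, limma adjusted p = 0.824). Array 1, the lowest here, was also the lowest of the knockout-labelled arrays for Slc3a2, Slc7a5, Slc1a4 and Slc7a3. Over the 30 tested members it was lowest for 15 (50%), and over all genes tested for 36.3%. Over the 13 members called higher it was lowest for 9 (69.2%), a share with no like background here, since all genes were not split by call. Slc7a10 (Asc-1) was near the filter and gave 0.57 ± 0.61.

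The cationic amino acid transporters, which carry arginine, lysine and ornithine, included calls in both directions, the lower one, Slc7a1, at 2 of its 3 probe sets only. Slc7a2 (CAT2), known from liver and activated macrophages, read 583, 811 and 1375 on the knockout-labelled arrays, against 210, 198 and 146 on the wild-type-labelled arrays. The groups were far apart, at 923 ± 407.4 against 184.5 ± 34.11 (SD, n = 3 each), 4.75-fold higher (log2 difference 2.25 ± 0.32, SE, limma adjusted p = 0.000575). Array 3, its highest, had the highest hepatocyte sum (220600) of the knockout-labelled arrays. It also had their highest erythroid (184700), macrophage (29750) and granulocyte (211600) sums. The megakaryocyte, lymphoid, and endothelial and stromal sums were highest on other arrays. The part of any of these cells in the Slc7a2 signal was not tested. Of 12 tested macrophage markers 7 were higher and 3 lower (Lyz2, Csf1r and Mpeg1), with a median of 1.37, while the sum over 14 was 22460 to 29750 in the knockout-labelled group, against 33960 to 39980 in the wild-type-labelled group. All 3 probe sets of Slc7a2 above the filter were called higher, at 1.73, 1.82 and 2.25. Those at 1.73 and 1.82 had wild-type-labelled means under the filter (86.4 and 78.4). They were tested only through the knockout-labelled group, which favours a higher call, so they add little to the brightest.

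Slc7a3 (CAT3) read 227, 496 and 282 on the knockout-labelled arrays, against 111, 175 and 84.1 on the wild-type-labelled arrays, with no overlap. Its difference was 1.43 ± 0.40 (SE, limma adjusted p = 0.0155), and the call was lost after quantile normalization (0.157), cyclic loess (0.145) and median centring (0.163) and without knockout-labelled array 2 (0.0616). Slc7a4, a related protein with no settled substrate, rose by 0.71 ± 0.19 (adjusted p = 0.0126). That call was lost under the same 3 scalings (0.0647, 0.0643 and, at -0.11, 0.751) and without wild-type-labelled array 1 (0.0508).

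Slc7a1 (CAT1), the general arginine carrier of dividing cells, had probe sets that disagreed. The brightest read 1425, 1460 and 1384 on the knockout-labelled arrays, against 2272, 2282 and 2526 on the wild-type-labelled arrays. The difference was -0.73 ± 0.14 (SE, 1.66-fold lower, limma adjusted p = 0.00314), and in the fit over all probe sets, used for every further probe set named here, the next gave -0.57 ± 0.16. The dimmest read 236, 380 and 410 on the knockout-labelled arrays, against 63, 118 and 109 on the wild-type-labelled arrays, a difference of 1.83 ± 0.38. The wild-type-labelled mean of this dimmest probe set (96.8) lay under the filter. It was tested only through the knockout-labelled group, which favours a higher call, and the disagreement rests on it alone. The mean of the 3 probe sets gave 0.18 and did not pass (adjusted p = 0.433).

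**Figure D2:**
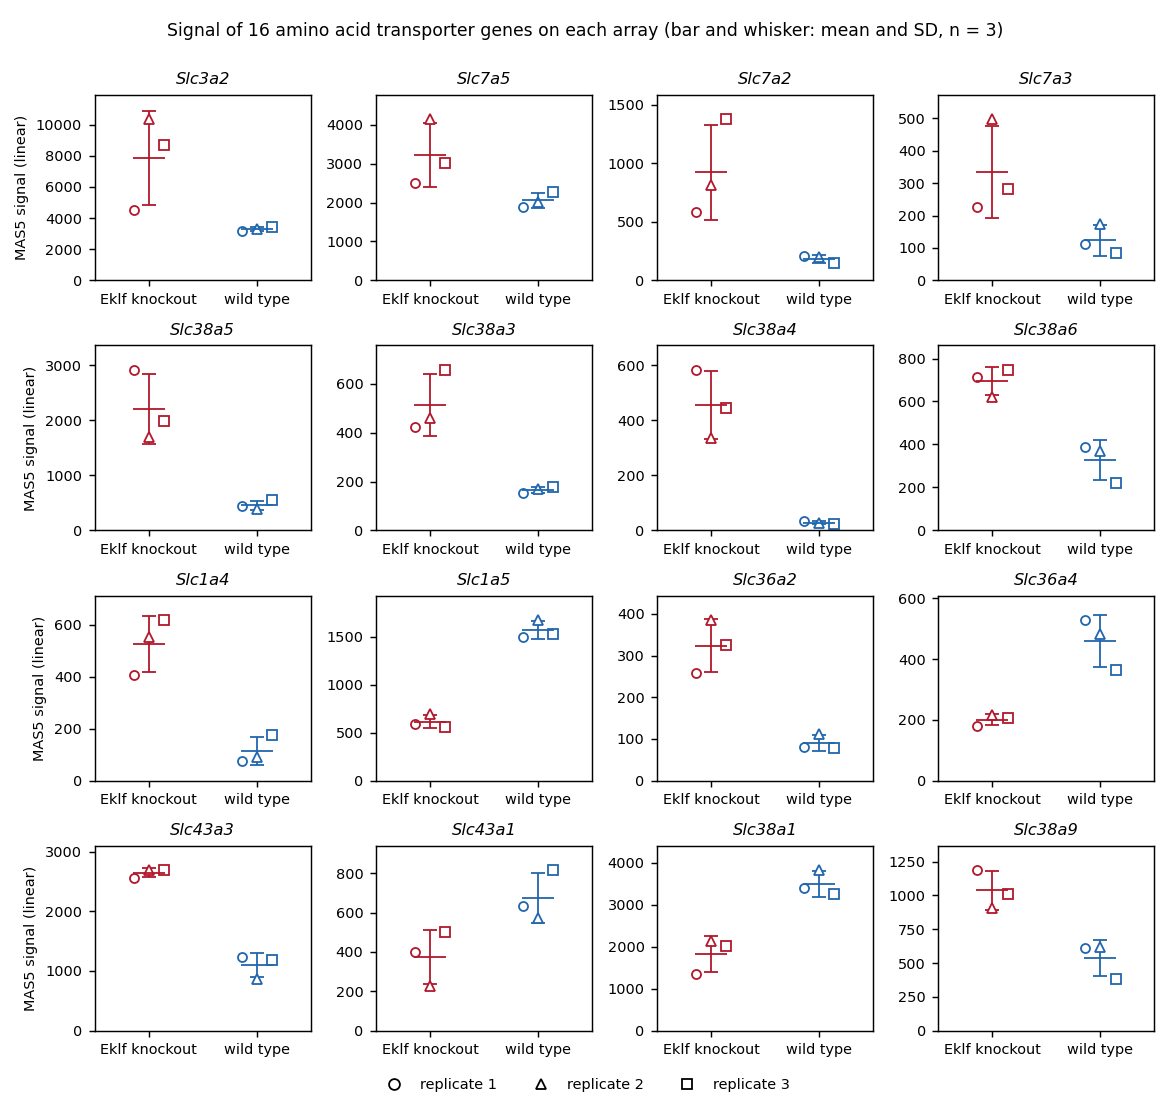
MAS5 signal (linear scale, each panel with its own axis from 0) of 16 transporter genes, each at its brightest probe set, with the knockout-labelled arrays left of the wild-type-labelled arrays. Symbols are the 3 replicates and bars the mean and SD. The panels show called members only, so the lack of overlap in all 16 follows from the choice. Of the 30 tested members, 14 did not overlap and were higher, and 7 did not overlap and were lower. Over all genes tested these shares were 34.1% and 25.2%. The spread is widest in knockout-labelled Slc3a2, at 4496 to 10340.

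The Slc38 family had all 9 of its genes above the filter, with 5 higher, 3 lower and 1 that did not pass at the brightest probe set of each. Of all genes tested, 27.9% were called higher and 20.8% lower, and so few genes are no evidence about the family. Of the 3, Slc38a1 was lower at both of its probe sets, while those of Slc38a2 and Slc38a10 disagreed. Slc38a4 (SNAT4), a carrier of liver and placenta whose gene is imprinted in mouse, had the largest difference of any transporter tested. It read 585, 336 and 446 on the knockout-labelled arrays, against 35, 26 and 24.6 on the wild-type-labelled arrays. The log2 difference was 3.98 ± 0.39 (SE, 15.8-fold, limma adjusted p = 7.1e-05), a fold that rests on a wild-type-labelled level under the filter. The second probe set of Slc38a4 read 748, 415 and 754 on the knockout-labelled arrays, against 6.98, 12 and 4.51 on the wild-type-labelled arrays. That probe set lay under the filter and was not tested. Slc38a3 (SNAT3), which moves glutamine across the hepatocyte membrane, read 421, 460 and 658 on the knockout-labelled arrays, against 152, 169 and 177 on the wild-type-labelled arrays. The groups did not overlap, and the difference was 1.60 ± 0.25 (SE, 3.04-fold, limma adjusted p = 0.00102). Hepatocyte markers were higher too, with a median difference of 4.46 and a range of 0.95 to 7.63 over the 21 tested. Alb stood at 29090, 39820 and 51410 on the knockout-labelled arrays, against 2205, 2152 and 2459 on the wild-type-labelled arrays.

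Slc38a5 (SNAT5), which carries glutamine, glycine and serine, read 2925, 1704 and 1993 on the knockout-labelled arrays, against 438, 387 and 546 on the wild-type-labelled arrays. The lowest knockout-labelled array stood well above the highest wild-type-labelled one. The means were 2208 ± 637.9 against 457 ± 81.22 (SD, n = 3 each), 4.75-fold higher (log2 difference 2.25 ± 0.23, SE, limma adjusted p = 9.57e-05). The call held in all 17 alternative fits, where the difference ran from 1.43 to 2.42. Array 1, the highest for Slc38a5, was the lowest for Slc3a2, so the knockout-labelled arrays did not share 1 order across transporters.

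Slc38a6, of unsettled substrate, read 713, 622 and 749 on the knockout-labelled arrays, against 390, 372 and 220 on the wild-type-labelled arrays, with no overlap (1.13 ± 0.26, SE, limma adjusted p = 0.00623). Slc38a9, the lysosomal carrier that reports arginine to mTORC1, rose by 0.98 ± 0.23 (adjusted p = 0.00769). All 5 of its probe sets above the filter had a positive difference, 0.23 to 1.72, of which 2 passed. Both calls were lost after median centring (differences 0.31 and 0.16), and that of Slc38a9 also when its probe sets were averaged (0.82, adjusted p = 0.0787). Slc38a7, a glutamine carrier of the lysosome, gave 0.31 ± 0.22 and did not pass.

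Slc38a1 (SNAT1), a sodium-driven importer of glutamine and alanine, was lower. It read 1343, 2136 and 2023 on the knockout-labelled arrays, against 3397, 3833 and 3252 on the wild-type-labelled arrays. The difference was -0.96 ± 0.20 (SE, 1.94-fold lower, limma adjusted p = 0.00412), and its other probe set gave -1.65 ± 0.23. Every alternative fit kept this call, with differences of -1.77 to -0.72.

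Slc38a2 (SNAT2), the carrier that cells raise when amino acids run short, gave calls in both directions. Its brightest probe set read 2597, 2370 and 2847 on the knockout-labelled arrays, against 4910, 4275 and 4051 on the wild-type-labelled arrays (-0.76 ± 0.15, SE, limma adjusted p = 0.00337). The next read 1399, 1884 and 1702 on the knockout-labelled arrays, against 935, 902 and 835 on the wild-type-labelled arrays (0.89 ± 0.17, adjusted p = 0.00382). The third read 301, 435 and 272 on the knockout-labelled arrays, against 149, 150 and 117 on the wild-type-labelled arrays (1.25 ± 0.30, adjusted p = 0.00944). With the mean of the 3 probe sets the gene was called higher (0.46, adjusted p = 0.0416), so no direction is given here for Slc38a2.

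Slc38a10 had 6 probe sets above the filter that spread in the same way. The brightest read 2532, 2797 and 2516 on the knockout-labelled arrays, against 3733, 3744 and 4524 on the wild-type-labelled arrays (-0.61 ± 0.15, SE, limma adjusted p = 0.00904). Another read 529, 701 and 823 on the knockout-labelled arrays, against 341, 386 and 382 on the wild-type-labelled arrays (0.87 ± 0.23, adjusted p = 0.0136). The remaining 4 ran from -0.54, which passed, to 0.46, and the mean over its probe sets was 0.03. The call at the brightest was also lost after quantile normalization (-0.36, adjusted p = 0.0511) and cyclic loess (-0.37, adjusted p = 0.0586). Of the 12 members with several probe sets above the filter, 4 had them on both sides of 0: Slc38a2, Slc38a10, Slc7a1 and Slc43a2. In the fit over 22599 probe sets, 53 of the members' 86 were tested, 23 were called higher and 10 lower. The background there was 27.3% higher and 17.5% lower. Among the 23 are probe sets of Slc1a4, Slc7a2, Slc7a1, Slc36a2 and Slc38a4 whose wild-type-labelled mean lay under the filter. These were tested only through the knockout-labelled group, so the counts are not evidence about the families.

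**Figure D3:**
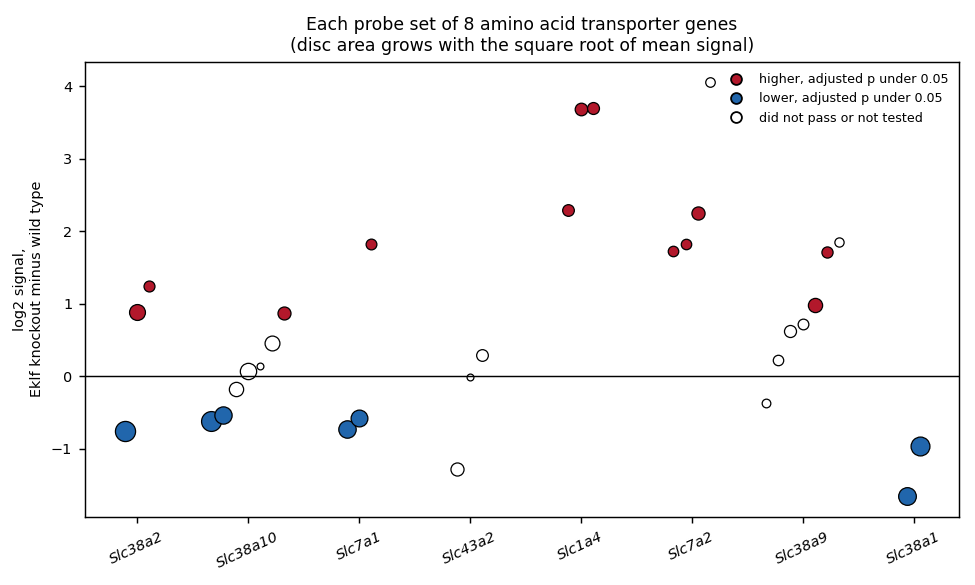
Log2 difference, knockout-labelled minus wild-type-labelled, of each probe set of 8 transporter genes, with disc area growing with the square root of mean signal filled discs for those that passed and open ones for those that did not or were not tested. The probe sets of Slc38a2, Slc38a10 and Slc7a1 were called in both directions, with the brightest lower, while the 3 of Slc1a4 lie at 2.29 to 3.70. The dimmer probe sets of Slc1a4 and Slc7a2, and the higher one of Slc7a1, had wild-type-labelled means under the filter.

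The pair of neutral amino acid exchangers of the Slc1 family moved apart. Slc1a4 (ASCT1), an exchanger of alanine, serine and cysteine, read 407, 552 and 620 on the knockout-labelled arrays, against 74.7, 90.9 and 174 on the wild-type-labelled arrays. The difference was 2.29 ± 0.36 (SE, 4.9-fold, limma adjusted p = 0.000928), and its 2 other probe sets gave 3.69 and 3.70. Slc1a5 (ASCT2), the glutamine exchanger of dividing cells, read 591, 690 and 562 on the knockout-labelled arrays, against 1501, 1677 and 1532 on the wild-type-labelled arrays. The ranges did not meet, and the difference was -1.36 ± 0.17 (SE, 2.56-fold lower, adjusted p = 0.000237). Its dimmer probe set gave -0.57 ± 0.55 and did not pass (0.418). Both genes kept their direction and call in all 17 alternatives.

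The glutamate transporters of this family, known mostly from brain and retina, were dim. Slc1a1, Slc1a2, Slc1a3 and Slc1a6 lay under the filter, and Slc1a7, just above it, gave 0.90 ± 0.60 (adjusted p = 0.238). In all, 10 members were under the filter: these 4, Slc3a1, Slc7a9, Slc7a12, Slc7a13, Slc7a14 and Slc7a15. For 2 of the 10, Slc1a2 and Slc1a6, every knockout-labelled array stood above every wild-type-labelled one, as was so for 35.7% of the 5394 genes under the filter.

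In the Slc36 family, Slc36a2 (PAT2, a proton-driven carrier of glycine and proline) read 259, 386 and 327 on the knockout-labelled arrays, against 79.9, 113 and 78.9 on the wild-type-labelled arrays. It was 3.58-fold higher (1.84 ± 0.32, SE, limma adjusted p = 0.00158), but its wild-type-labelled mean lay under the filter, so it was tested only because the knockout-labelled group was high. Slc36a4 (PAT4, a high-affinity carrier of proline and tryptophan) read 180, 216 and 207 on the knockout-labelled arrays, against 530, 484 and 363 on the wild-type-labelled arrays. It was 2.26-fold lower (-1.18 ± 0.24, adjusted p = 0.00392), a call that held in all 17 alternatives. Slc36a1 (PAT1), of the lysosome, gave -0.18 ± 0.21 and Slc36a3 gave 0.40 ± 0.40, and neither passed.

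In the Slc43 family, Slc43a3, known as a carrier of purine bases and not of amino acids, read 2562, 2698 and 2686 on the knockout-labelled arrays, against 1231, 873 and 1190 on the wild-type-labelled arrays. It was 2.44-fold higher (1.29 ± 0.17, SE, limma adjusted p = 0.000436), which did not pass once arrays were centred on their medians (0.47, adjusted p = 0.162). Slc43a1 (LAT3), a leucine carrier, read 397, 228 and 501 on the knockout-labelled arrays, against 633, 573 and 818 on the wild-type-labelled arrays. The groups stood apart by a small gap, and the difference was -0.90 ± 0.30 (adjusted p = 0.0327). Leaving out knockout-labelled array 2 (-0.58, adjusted p = 0.09), wild-type-labelled array 1 (0.0632) or wild-type-labelled array 3 (0.0897) ended that call. Slc43a2 (LAT4) read 440, 92.8 and 584 on the knockout-labelled arrays, against 700, 558 and 868 on the wild-type-labelled arrays. Its groups overlapped, array 2 stood far below the others, and the difference of -1.28 ± 0.58 did not pass (0.0961). Another Slc43a2 probe set gave 0.29 ± 0.28.

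Some of these genes lie side by side. In the RefSeq gene order Slc38a1, Slc38a2 and Slc38a4 follow each other on chromosome 15 with 0 protein-coding genes between them, and Slc38a1 (-0.96) and Slc38a4 (3.98) were called in opposite directions. Slc43a1 and Slc43a3, on chromosome 2 with 1 protein-coding gene between them, were called at -0.90 and 1.29. Slc36a3, Slc36a2 and Slc36a1 adjoin on chromosome 11, and of these Slc36a2 was called.

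Other amino acid carriers outside these families were read for comparison, from a list chosen by function. Of 24 tested, 10 were higher (41.7%) and 1 lower (4.17%), with a median of 0.41, against 27.9% and 20.8% of all genes. These counts became 7 higher and 3 lower with quantile normalization or loess, and 1 higher and 9 lower with median centring. Slc6a9 (GlyT1), the glycine importer of red cell precursors, read 3941, 3013 and 3629 on the knockout-labelled arrays, against 688, 818 and 895 on the wild-type-labelled arrays. It was 4.41-fold higher (2.14 ± 0.18, SE, limma adjusted p = 2.78e-05). Slc25a38, which brings glycine into the mitochondrion for haem synthesis, rose by 1.34 ± 0.23 (adjusted p = 0.00163). Slc25a29, a mitochondrial carrier of basic amino acids, rose by 1.30 ± 0.21. Slc25a12, an aspartate and glutamate carrier, fell by 0.93 (SE 0.15), and with the mean of its probe sets it gave -0.19 and did not pass (0.455). The calls of Slc25a38 (0.147) and Slc25a29 (0.148) were lost after median centring, and that of Slc25a29 also with the mean of its probe sets (0.308).

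Genes of the amino acid response, which cells switch on through Gcn2 and Atf4 when amino acids are short, were higher for 13 of 28 tested (46.4%) and lower for 3 (10.7%), with a median of 0.97, against 27.9% and 20.8% of all genes. Asns, asparagine synthetase, read 10280, 15740 and 13800 on the knockout-labelled arrays, against 3430, 3418 and 4819 on the wild-type-labelled arrays (1.77 ± 0.21, SE, limma adjusted p = 0.000186). Mthfd2, of mitochondrial folate metabolism, rose by 2.18 ± 0.18, Stc2, a secreted stress protein, by 1.69 ± 0.19, and Ppp1r15a, which ends the block on translation, by 1.97 ± 0.29. Atf4 itself did not pass (0.25 ± 0.25, adjusted p = 0.42), and Eif2ak4, which encodes Gcn2, fell by 0.95 (SE 0.20, adjusted p = 0.00494). Knockout-labelled array 1 was the lowest of its group for 24 of the 28 genes (85.7%). For Trib3, a target of Atf4, the knockout-labelled arrays read 532, 2577 and 1316, against 103, 155 and 165 on the wild-type-labelled arrays. After median centring 8 of the 28 were higher and 7 lower.

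Genes of glutathione synthesis and of cysteine, glycine and glutamate use were higher for 9 of 19 tested (47.4%) and lower for 4 (21.1%), with a median of 0.37, against 27.9% and 20.8% of all genes. With median centring 3 were higher and 7 lower. The leading members were Alas2, the haem enzyme that uses glycine (3.93 ± 0.20), Chac2, which splits glutathione (3.15 ± 0.27), and Gclm, of glutathione synthesis (3.13 ± 0.27). Gsr, glutathione reductase, fell by 1.90 (SE 0.20). Of 37 tested genes that relay amino acid levels to mTORC1, 6 were higher (16.2%) and 8 lower (21.6%), with a median of 0.07, against 27.9% and 20.8% of all genes. Quantile normalization and loess each gave 3 higher and 11 lower, and median centring gave 0 higher and 22 lower. Lamtor4 fell by 1.33 (SE 0.22) and Lamtor5 fell by 1.02 (SE 0.17), both of the lysosomal Ragulator complex, and Sesn1, a leucine sensor family member, fell by 1.04 (SE 0.17). Nprl3, of the GATOR1 inhibitor complex, rose by 1.32 ± 0.25 (adjusted p = 0.00263), a call lost after median centring (0.146).

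**Figure D4:**
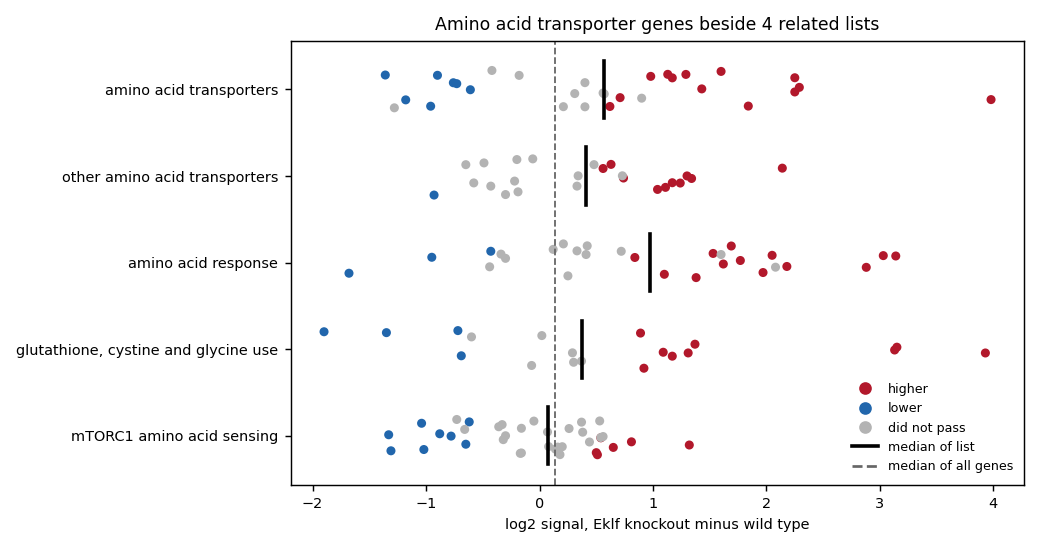
Log2 difference, knockout-labelled minus wild-type-labelled, of each tested gene (1 point per gene, spread vertically for display) for the 30 transporters and 4 lists of related genes. Black bars are the medians, 0.56 for the transporters, 0.41, 0.97, 0.37 and 0.07 for the lists from top to bottom, and the dashed line is the median of all genes, 0.14. The medians are not matched for the brightness of the genes.

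The scaling of the arrays set how many transporters were called in each direction. After median centring, which lowered the median of all genes to -0.68, 6 transporters were higher and 10 lower. Quantile normalization and cyclic loess each left 11 higher and 6 lower, with medians of 0.03 and 0.04. For all genes, 57.3% of calls were higher as deposited, 44.8% with quantile-normalized arrays, 46.3% with loess and 15% when medians were equalized. In all 17 alternatives, 9 of the 20 called transporters kept both direction and call. These were Slc1a4, Slc7a2, Slc36a2, Slc38a3, Slc38a4 and Slc38a5, which were higher, and Slc1a5, Slc36a4 and Slc38a1, which were lower. For Slc36a2 and Slc38a4, which were tested through the knockout-labelled group alone, this says nothing about stability.

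**Figure D5:**
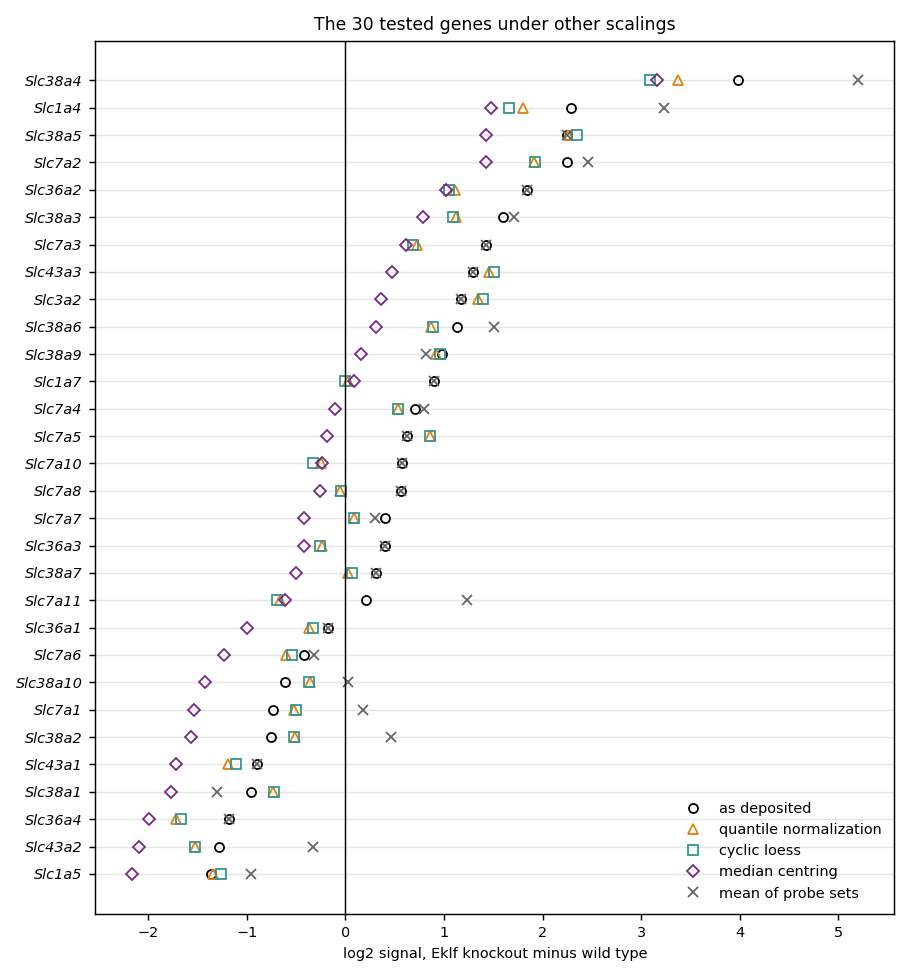
Log2 difference, knockout-labelled minus wild-type-labelled, of the 30 tested transporters as deposited and under 4 other settings. Median centring (diamonds) shifts all genes to the left (Slc38a5 at 1.43, against 2.25 as deposited), while Slc38a1, Slc36a4 and Slc1a5 lie left of 0 under every setting shown.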

How the data were processed

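The authors deposited an intensity value on a linear scale for each probe set and array, for which the submitters' processing notes name MAS5 and Affymetrix Expression Console, without versions. Detection calls were not used here. Probe sets were named from the platform annotation, with symbols updated through Entrez identifiers to RefSeq (34754 of 34958 matched, and 0 member symbols changed). A floor of 1 (reached by 303 values) came before the log2 step, and the arrays were not rescaled. The brightest probe set on average stood for each gene. Genes whose mean log2 fell below 6.62, the 40th percentile, were left out. limma 3.58.1 (R 4.3.3), with lmFit and a variance trend in eBayes, compared the 6 arrays two-sided, with Benjamini-Hochberg adjustment over 12799 genes, or over 22599 probe sets in the fit by probe set. In a test on simulated data the estimates centred on the known changes, but many of the smaller changes were not called. Far fewer genes were changed in that simulation than were called here, so it does not measure how many changes this fit missed. With 3 arrays per group the number of arrays limits precision.

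The members and lists were chosen with earlier results of these data known. Values on every array are given for called members with a log2 difference of at least 1, both heavy chains and members whose probe sets disagree, and up to 4 genes of smallest p are named per list. Slc7a5, Slc7a11, Slc43a1, Slc38a1, Atf4, Eif2ak4 and Trib3 were given beyond that rule, as were the marker genes. Alternatives were quantile normalization, cyclic loess, median centring, offsets of 16 and 64, other filters, other variance models, the mean of probe sets, a replicate block and each array left out. Correlations of deviations were 0.08, 0.04 and 0.09 for same-numbered arrays of the 2 groups, and -0.10 to 0.02 for the other pairs. The same-numbered values were thus the highest, but all were small. The labels call the samples independent, and the numbers were not taken as pairs in the main fit. Promoter sequences are RefSeq's, GRCm38.p6.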

Additional observations from a re-analysis of the deposited data

Results flagged for a closer look

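Signals outside the tested genes were looked at for the transporters. A probe set listed for both Slc1a2 and Gm13872 read 45.6, 65.2 and 36.9 on the knockout-labelled arrays, against 25.6, 24.2 and 26.7 on the wild-type-labelled arrays, a log2 difference of 0.91. Slc1a2, under the filter, read 66.7, 128 and 64.4 on the knockout-labelled arrays, against 8.43, 15.4 and 11.9 on the wild-type-labelled arrays (2.82). Slc1a6, also under the filter, read 33, 32.1 and 16.6 on the knockout-labelled arrays, against 7.99, 8.44 and 9.47 on the wild-type-labelled arrays (1.59). Each stood above the wild-type-labelled level on all knockout-labelled arrays, and none was tested. The median difference of all genes under the filter was 1.02.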

How the results depend on the processing

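Of 510 member results under 17 alternatives, 455 kept their direction and their side of the threshold, 22 lost a call, 10 gained one and 23 changed sign. The members' median of 0.56 was 0.03 with quantile normalization, 0.04 with cyclic loess, -0.25 with median centring, 0.43 with an offset of 64, 0.67 with no filter (40 genes), and 0.42 to 0.73 with 1 array left out. Counts of members moved to 6 higher after median centring and to 4 lower with the mean of probe sets. Of the members' probe sets, 15 were called higher with quantile normalization, 14 with loess and 9 with median centring, which also called 16 lower. Under these 3 scalings in the same order the sign turned for Slc36a3 (-0.24, -0.26, -0.42), Slc7a10 (-0.25, -0.33, -0.24), Slc7a11 (-0.66, -0.69, -0.61) and Slc7a8 (-0.06, -0.05, -0.26). After median centring alone it turned for Slc38a7 (-0.50), Slc7a4 (-0.11), Slc7a5 (-0.19) and Slc7a7 (-0.42). With the mean of probe sets it turned for Slc38a10 (0.03), Slc38a2 (0.46) and Slc7a1 (0.18). With 1 array left out Slc7a11 ran from -0.34 to 1.09 and Slc36a3 from -0.07 to 0.67. The causes were not tested. Called genes overall numbered 3571 higher and 2661 lower, against 2224 higher with quantile normalization, 2292 with loess, and 1085 higher and 6133 lower with centred medians. With the replicate block 13 members were higher and 8 lower. The added call was Slc43a2 (-1.28, adjusted p = 0.0194). Signals near the filter, used here without detection calls, limit the folds of dim genes.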
